A study of Mus musculus with 36 samples.

Results

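Proliferating cells of the mouse submandibular salivary gland were selected as single-cell barcodes with a UMI (unique molecular identifier, 1 counted RNA molecule) in 3 or more of 8 cell-cycle genes, Top2a, Mki67, Cenpf, Cenpe, Birc5, Cdk1, Ccnb1 and Ube2c. Among barcodes with 100 or more detected genes and under 15% mitochondrial UMIs, 346 of 25993 met this rule. They comprised 164 of 23346 cells in 26 Drop-seq libraries and 182 of 2647 in 4 CITE-seq libraries. Drop-seq reads RNA from single cells in droplets, and CITE-seq reads antibody tags on the same cells as well.

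Each library came from 1 gland of a C57BL/6 mouse of either sex. Double-mutant glands carried beta-catenin GOF (a gain-of-function allele) and Bmpr1a LOF (loss of a BMP receptor), and control glands carried neither. Both genotypes carried K14-Cre, a recombinase driven by a keratin promoter of basal epithelial cells, and the Cre-dependent R26 EYFP reporter. Drop-seq covered 6 control and 7 double-mutant glands at postnatal day 40 (P40) and 6 and 7 at P90, and CITE-seq covered 2 glands of each genotype at P70. For CITE-seq the study also added a small amount of human HEK cells to the suspensions, so not every CITE-seq barcode need be a gland cell. Bulk RNA-seq covered a control gland of P70 and a P100 double-mutant gland, 1 each.

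A dividing cell copies its DNA in S phase, condenses and separates the copies in mitosis, and expresses the genes for each step in waves. Mki67 and Top2a coat and untangle mitotic chromosomes, Cenpe and Cenpf act at kinetochores, Birc5 belongs to the chromosomal passenger complex, Cdk1 and Ccnb1 form the mitotic kinase, and Ube2c marks mitotic proteins for destruction. In the resting salivary gland few cells divide, and duct cells, acinar cells and resident macrophages can each renew by division.

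Many genes of the mitotic wave share 2 textbook promoter elements, a CCAAT box and a cell cycle genes homology region (CHR). All 8 selecting genes matched a RefSeq promoter window on GRCm38.p6, 250 bases before to 50 after the gene start. Windows were searched on both strands for CCAAT, for the CHR as TTTGAA or TTCGAA, and for E2F sites as TTTCGCGC, TTTGGCGC or TTTCCCGC, and on the opposite strand CCAAT reads as ATTGG and TTTGAA as TTCAAA. Of the 8 windows, 7 held a CCAAT box, against 37.4% of all 32851 RefSeq windows. A CHR was present in 5 of 8 against 19.2%, both together in 5 of 8 against 7.52%, and an E2F site in 1 of 8 against 1.84%. The 4 windows below, with these matches in capitals, carry both elements. They are Top2a (chr11:99024140-99024439, minus strand), Mki67 (chr7:135716330-135716629, minus strand), Cdk1 (chr10:69352863-69353162, minus strand) and Ube2c (chr2:164769679-164769978, plus strand). In Ube2c a CCAAT and an ATTGG share bases, and the Cdk1 window holds the only E2F match, TTTCGCGC.
Top2a: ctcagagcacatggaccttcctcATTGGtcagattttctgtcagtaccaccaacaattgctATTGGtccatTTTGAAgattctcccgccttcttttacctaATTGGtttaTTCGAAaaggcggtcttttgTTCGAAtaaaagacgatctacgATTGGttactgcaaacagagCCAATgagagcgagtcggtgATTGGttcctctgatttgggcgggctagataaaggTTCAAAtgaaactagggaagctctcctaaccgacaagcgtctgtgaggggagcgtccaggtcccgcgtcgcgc
Mki67: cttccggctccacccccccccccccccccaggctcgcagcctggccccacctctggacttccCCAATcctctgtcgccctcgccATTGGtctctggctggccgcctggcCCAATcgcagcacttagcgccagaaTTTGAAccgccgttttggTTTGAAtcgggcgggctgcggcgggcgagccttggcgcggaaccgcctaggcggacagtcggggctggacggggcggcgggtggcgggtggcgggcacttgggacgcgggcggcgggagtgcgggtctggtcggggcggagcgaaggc
Cdk1: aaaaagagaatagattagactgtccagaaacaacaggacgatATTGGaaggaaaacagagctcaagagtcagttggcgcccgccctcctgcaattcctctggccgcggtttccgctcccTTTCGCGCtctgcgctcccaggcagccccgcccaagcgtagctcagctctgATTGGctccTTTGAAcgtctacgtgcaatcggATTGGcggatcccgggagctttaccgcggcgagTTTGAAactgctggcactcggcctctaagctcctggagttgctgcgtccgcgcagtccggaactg
Ube2c: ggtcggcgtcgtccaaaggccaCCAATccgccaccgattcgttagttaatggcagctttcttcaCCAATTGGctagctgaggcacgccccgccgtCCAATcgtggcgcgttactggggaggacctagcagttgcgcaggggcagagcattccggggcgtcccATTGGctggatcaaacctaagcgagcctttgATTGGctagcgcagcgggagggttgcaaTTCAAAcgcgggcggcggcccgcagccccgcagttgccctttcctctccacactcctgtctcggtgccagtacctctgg

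The libraries held 777537 to 7013325 UMIs over 606 to 1209 Drop-seq cells, with library medians of 408 to 4671 UMIs per cell. Pooled median depth was 2892 UMIs in control P40 cells, 1341 in control P90, 1570 in double-mutant P40 and 766.5 in double-mutant P90, so depth moved with stage and genotype. In all, 21 barcodes occurred in more than 1 library, and none of them was a proliferating cell. The sex genes of 2 double-mutant libraries went against their labels, and 1 double-mutant P90 library was high in ribosomal genes. Beside a result, values without them are given where a call was lost.

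In Drop-seq, Mki67 was detected in 138 of the 164 proliferating cells, Top2a in 122, Birc5 in 91, Cenpe in 77, Ube2c in 69, Cenpf in 67, Cdk1 in 61 and Ccnb1 in 32. The 4 label markers Top2a, Mki67, Cenpf and Birc5 were thus all present. These genes chose the cells, so their levels are a description. Just inside the rule, 72 cells had 3 selecting genes, and just outside it, 110 cells had 2. Genes the rule did not read had higher levels along the same scale. UMIs of 70 other mitosis genes made up 2.70 per 10000 in cells with no selecting gene, 34.9 in cells with 2 and 69.0 in cells with 3. UMIs of 60 genes of a DNA replication list made up 2.62, 29.8 and 39.8 per 10000 in the same cells.

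Among these other genes, Hmgb2, a chromatin protein, had a UMI in 122 of 164 proliferating cells against 8.78% of other cells. Smc4, a condensin subunit, was detected in 112 of 164 against 4.90%. Cenpa, the centromeric histone, was detected in 68 against 0.53%, and the replication clamp Pcna in 58 against 7.51%. The next highest mitosis gene, Arl6ip1, was detected in 101 cells. Of the other members of the replication list with the highest levels, Tmpo was detected in 48 cells, Atad2 in 47 and Rrm2, a subunit of the enzyme that makes deoxynucleotides, in 46. Among chromatin and tubulin genes, Ptma was detected in 151 proliferating cells (92.1%) against 45.4% of others, Tubb5 in 126 (76.8%) against 7.30%, Tuba1b in 121 (73.8%) against 7.78% and Hnrnpa2b1 in 119 (72.6%) against 42.8%. UMIs of the replication list exceeded those of the mitosis list in 16 of the 164 cells, and 10 cells had no replication UMI. Genes of the G1 phase, which precedes replication, were less frequent: Cdk4 was detected in 40 cells, Ccnd1 in 34, Ccnd2 in 25 and Cdk2 in 16. Among genes that restrain the cycle, Btg2 was detected in 84 proliferating cells (51.2%) and 51.7% of others, and Gadd45g in 43 (26.2%) and 28.8%. Cdkn1a, the p21 inhibitor, was detected in 56 (34.1%) and 9.71%, and Gadd45b in 45 (27.4%) and 15.4%. Within the immune class Cdkn1a was detected in 48.1% of proliferating and 32.6% of other cells. Depth was unlike there, with a median of 1368 UMIs in proliferating immune-class cells against 690 over the whole immune class. In the epithelial class the medians were 1855 and 2016. Over all classes depth was closer. Proliferating cells had a median of 1497.5 UMIs and 844.5 genes, and other cells 1528 UMIs and 485 genes. No proliferating Drop-seq cell had 2500 or more genes.

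In each gland, the share of proliferating cells was low and varied several-fold. In control P40 glands it ran from 0.105% through a median of 0.498% to 0.872% (mean 0.533% ± 0.293 SD, n = 6, 32 cells of 5756). In control P90 glands it ran from 0% through 0.144% to 0.533% (0.187% ± 0.223, n = 6, 9 cells of 4987). In double-mutant P40 glands it ran from 0.471% through 1.54% to 2.08% (1.31% ± 0.669, n = 7, 83 cells of 6361). In double-mutant P90 glands it ran from 0.234% through 0.660% to 0.910% (0.619% ± 0.235, n = 7, 40 cells of 6242). No proliferating cell was found in 3 control P90 glands, and 0 of 1086, 642 and 821 cells allow shares of up to 0.276%, 0.467% and 0.365%. The genotypes overlapped at both stages.

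**Figure D1:**
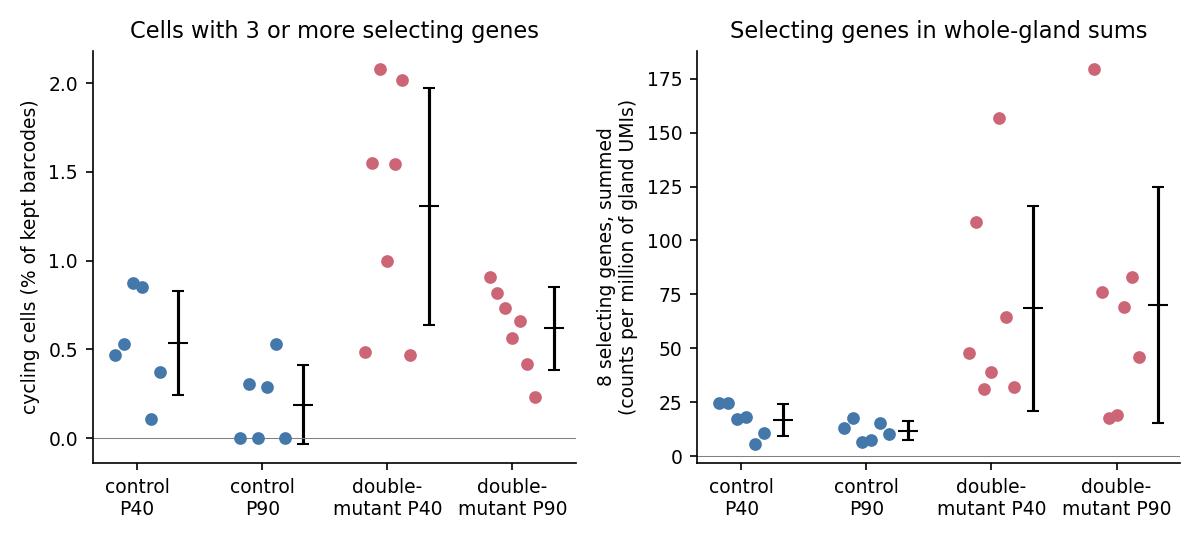
Proliferating cells as a percentage of kept barcodes (left) and the summed CPM of the 8 selecting genes (right), 1 point per Drop-seq gland, with the group mean and SD beside the points. In the left panel the double-mutant P40 glands span 0.471% to 2.08% and the control P90 glands 0% to 0.533%.

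Double-mutant glands held a larger share of proliferating cells than control glands. Over both stages the means were 0.962% ± 0.599 (n = 14) and 0.360% ± 0.307 (n = 12), a difference of 0.602 percentage points (two-sided permutation test within stage, p = 0.00107). At P40 the difference was 0.773 points (two-sided exact permutation test, p = 0.0256, adjusted p = 0.0420 over 4 comparisons). At P90 it was 0.432 points (exact permutation test, p = 0.0105, adjusted p = 0.0420). The difference between the genotype effects at the 2 stages was 0.341 points and did not pass the test (permutation, p = 0.361). The P40 adjusted p lay between 0.0505 and 0.0572 when any one of control P40 replicates 1, 2 or 5 or double-mutant P40 replicates 2, 3, 5 or 6 was left out, and the differences were then 0.644 to 0.772 points. With 4 or more selecting genes required, the differences were 0.379 points at P40 and 0.151 at P90, and neither passed (exact permutation, adjusted p of 0.148 and 0.0707).

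Depth and batch bear on these values. With each cell thinned to 500 UMIs, which left out 3 control P40, 348 control P90, 554 double-mutant P40 and 2070 double-mutant P90 cells, the means were 0.142%, 0.0892%, 0.551% and 0.321%. The overall difference was then 0.320 points (permutation test, p = 0.0130), while the differences of 0.409 points at P40 and 0.232 at P90 had adjusted p of 0.149 and 0.424 by exact permutation. The thinned double-mutant P90 mean rested on replicate 5, a library with contrary sex genes, which stood at 1.30%. Without it the mean was 0.158% and the thinned P90 difference 0.0683 points (exact permutation, adjusted p = 0.468). Within Drop-seq and sequencing batches holding both genotypes, the mean double-mutant and control shares were 0.538% and 0.144% in batch 8, 0.234% and 0.266% in batch 9, 0.907% and 0.498% in batch 12, 1.43% and 0.872% in batch 13, and 0.471% and 0.444% in batch 14. The double-mutant mean was higher in 4 of 5 batches, but in batches 12 and 13 it included P90 glands while the controls were all P40. Permuting within batches, the difference was 0.475 points over all glands (exact permutation p = 0.0417), 0.725 at P40 (exact p = 0.0556) and 0.232 at P90 (exact p = 0.278), so neither stage passed alone. Permuting within batch and stage together, which left 10 control and 7 double-mutant glands, the difference was 0.504 points (exact p = 0.0309).

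Within each genotype the share was lower at P90 than at P40. The difference was -0.687 points in double-mutant glands (two-sided exact permutation test, p = 0.0315, adjusted p = 0.0420) and -0.346 points in control glands (exact permutation test, p = 0.0455, adjusted p = 0.0455). Summed levels of the selecting genes did not follow the same order in double-mutant glands, where they ran from 31.2 to 157 CPM (UMIs per 1000000 UMIs of a gland) with a median of 47.7 at P40 and from 17.6 to 179 with a median of 69.4 at P90. No order of the stages is therefore read from the double-mutant shares. Control glands ran from 5.54 to 24.6 CPM at P40 and from 6.55 to 17.6 at P90. The thinned stage differences were -0.230 points in double-mutant and -0.0529 points in control glands, with adjusted p of 0.424 and 0.697 by exact permutation. All control P90 glands came from batches 7 to 9 and all control P40 glands from batches 12 to 14, so stage and batch cannot be told apart there. Leaving out mixed-class cells, described below, ended the control stage call (-0.287 points, exact p = 0.0801). The double-mutant stage call was lost without the library high in ribosomal genes, double-mutant P90 replicate 4 (-0.623 points, exact p = 0.0536). It was also lost without double-mutant P40 replicate 2, 3, 5 or 6 (-0.646, -0.558, -0.647 and -0.568 points). The control stage call was lost without control P40 replicate 1, 2, 3 or 4 or control P90 replicate 1, 3 or 6, when the difference lay between -0.359 and -0.278 points.

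Levels of 2 selecting genes were read from whole-gland sums. Top2a ran from 1.11 through 2.998 to 5.02 CPM in control P40 glands and from 4.38 through 12.2 to 28.5 in double-mutant P40 glands. At P90 it ran from 1.19 through 2.22 to 3.53 in control and from 3.56 through 15.6 to 40.5 in double-mutant glands. The genotypes overlapped at P40, and at P90 the highest control gland (3.53) and the lowest double-mutant gland (3.56) nearly met. Both genes chose the cells, so their levels are a description. Mki67 ran from 2.05 through 4.50 to 11.4 in control P40, 7.37 through 15.8 to 58.4 in double-mutant P40, 0.575 through 3.11 to 5.88 in control P90 and 5.60 through 12.5 to 39.0 in double-mutant P90 glands. Mki67 overlapped between genotypes at both stages.

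The proliferating cells belonged mainly to 2 lineages. Each cell was assigned by marker lists, keratins with Epcam and Cdh1 for epithelium, Cd74 with Ptprc and other leukocyte genes for immune cells, Col1a1 with other matrix genes for fibroblasts, and Pecam1 with other vessel genes for endothelium. A class needed 2 or more markers and at least 2 times the UMIs of the next list. Of the 164 Drop-seq cells, 79 were in the immune class (48.2%), 54 in the epithelial class (32.9%), 3 in the endothelial class and 1 in the fibroblast class. Another 13 did not exceed the next list by that margin (mixed class), and 14 had too few markers of any. No pericyte-class cell met the rule, and 0 of 66 allows a share of up to 4.55%. The order of the 2 lineages depended on this assignment. By the largest count among keratins, Cd74, Col1a1 and Pecam1 alone, 73 of the 164 cells were epithelial (44.5%) and 64 immune (39.0%).

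Within each class, 2.97% of immune-class cells were proliferating (79 of 2661, exact 95% interval 2.36 to 3.69%). In the epithelial class the share was 0.524% (54 of 10296, 0.394 to 0.684%). It was 0.383% (3 of 784) in the endothelial class, 0.287% (1 of 348) in the fibroblast class and 0.162% (14 of 8651) in cells without a class. In the mixed class, which may hold doublets, it was 2.41% (13 of 540). By the keratins, Cd74, Col1a1 and Pecam1 alone, the immune share was 2.28% and the epithelial share 0.547%. These intervals cover counting error only. The immune share was the higher one in 17 of 22 glands with 20 or more cells of both classes, the epithelial share in 3, and they were equal in 2. Immune-class cells had fewer UMIs (median 690) than epithelial-class cells (2016), and after thinning the shares were 1.42% and 0.183%. At least 1 selecting gene was detected in 10.8% of immune-class, 2.42% of epithelial-class and 1.58% of unclassed cells.

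**Figure D2:**
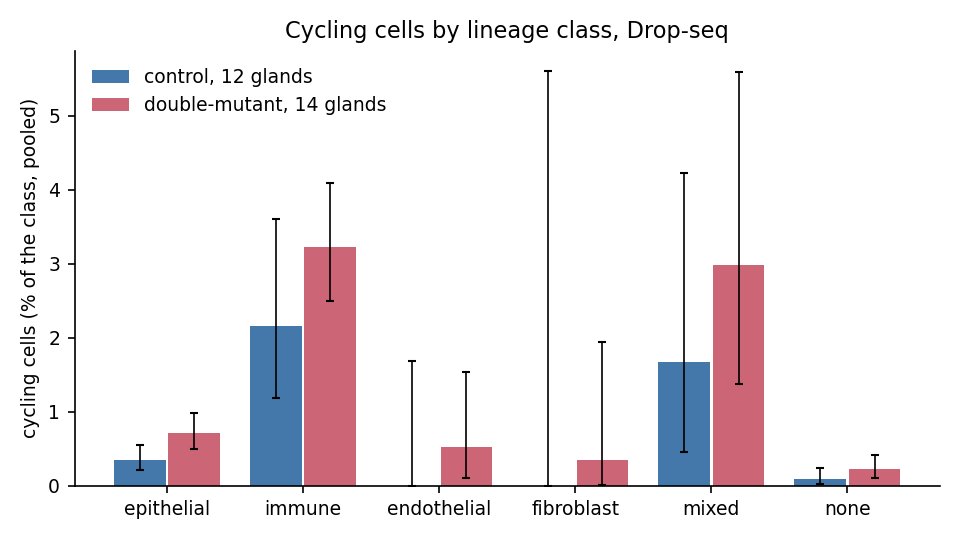
Proliferating cells as a percentage of all Drop-seq cells of a class, pooled over 12 control and 14 double-mutant glands, with exact 95% intervals that cover counting error only. The immune bars stand at 2.16% in control and 3.23% in double-mutant glands, and the epithelial bars at 0.353% and 0.712%.

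Genotypes were then compared within lineages. In the epithelial class the mean share per gland was 0.305% ± 0.352 in 12 control glands and 0.750% ± 0.492 in 14 double-mutant glands. Control epithelial shares ran from 0% through 0.230% to 1.198% and double-mutant shares from 0% through 0.766% to 1.44%, so the genotypes overlapped. The difference of 0.445 points had a permutation p of 0.0167 within stage and an adjusted p of 0.05004 over 3 lineages, which falls just above the threshold of 0.05. It was 0.210 points after thinning (permutation, adjusted p = 0.778) and 0.343 points with lineage by the largest marker sum (adjusted p = 0.0588). In the immune class the mean was 3.47% ± 4.87 in 8 control glands and 3.71% ± 4.33 in 14 double-mutant glands with 20 or more such cells. That difference of 0.236 points did not pass the test (permutation p = 0.880) and depended on single glands. Without control P40 replicate 4, which stood at 15% from 3 of 20 cells, the control mean was 1.82% and the difference 1.88 points (exact permutation p = 0.218). Without double-mutant P40 replicate 3, which stood at 15.5%, the difference was -0.670 points (exact permutation p = 0.684), and it was also below 0 without double-mutant P40 replicate 6 (-0.242), control P90 replicate 1 or 6 (-0.260 each) or control P90 replicate 2 (-0.0501). In the endothelial class all 3 proliferating cells came from double-mutant P40 glands (0.527% ± 0.910 over 10 glands against 0% in 5 control glands, exact permutation p = 0.393, adjusted p = 0.589). No control gland had enough fibroblast-class cells for a comparison. Immune-class cells made up 5.998% ± 5.02 of a control gland and 16.3% ± 8.41 of a double-mutant gland, and the part of this shift in the gland-wide difference was not tested.

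By stage, the epithelial shares in double-mutant glands were 0.776% ± 0.533 at P40 and 0.724% ± 0.488 at P90 (7 glands each). The immune shares were 6.02% ± 5.06 and 1.39% ± 1.57 in the same glands. Control glands had immune shares of 6.09% ± 6.01 at P40 and 0.853% ± 1.004 at P90 (4 glands each). Control epithelial shares were 0.498% ± 0.390 and 0.111% ± 0.174. These values by stage within lineage are a description. Of the proliferating cells themselves, the immune class took 14 of 41 in control and 65 of 123 in double-mutant glands, and the epithelial class 19 and 35. Among double-mutant glands with 10 or more proliferating cells, 5 at P40 had epithelial shares of 0%, 18.2%, 27.3%, 30% and 40% and the only one at P90 had 27.3%, so the smallest p an exact test allows is 0.167.

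Epithelial-class proliferating cells leaned to basal keratins, although most were luminal. Krt8 was detected in 64.8% of them and 60.6% of other epithelial-class cells, and Krt18 in 81.5% and 86.8%. The basal keratins Krt14 and Krt5 were detected in 42.6% and 18.5% of proliferating cells against 7.23% and 3.90% of the others. Basal keratin UMIs exceeded luminal ones in 16 of 54 proliferating cells (29.6%) and in 5.72% of 10242 others. In control glands this was 8 of 19 cells against 3.82%, and in double-mutant glands 8 of 35 against 7.81%. The duct kallikrein Klk1 was detected in 53.7% against 70.9%, and 2 or more duct markers in 20.4% against 43.7%. Klk1 was also detected in 33.6% of the other immune-class cells, which sets its background level. Acinar markers (2 or more) were found in 35.2% against 39.7%. The contractile gene Acta2 was detected in 7 of 54 against 2.22%.

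Tumor-associated genes were read in the same cells. Ptn, a growth factor, was detected in 40.7% of epithelial-class proliferating cells against 4.52% of the others. In control glands this was 42.1% against 3.10%, and in double-mutant glands 14 of 35 cells against 6.09%. Axin2, a Wnt feedback gene, was detected in 7 of 54 cells against 1.63%. The basal tumor gene Wif1 was detected in 1 of 54 cells, against 1.90% of the others, and Lef1 in none. Clu was detected in 9 of 35 double-mutant proliferating epithelial cells and 1222 of 4880 others there. Of 35 double-mutant proliferating epithelial cells, 3 had 2 or more cancer stem cell-like markers (8.57%), against 3.85% of the 4880 others. Basal tumor markers were found in 2 (5.71%) against 2.03% and luminal tumor markers in 8 (22.9%) against 19.5%. Of 19 control proliferating epithelial cells, 2 had cancer stem cell-like markers (10.5%), against 0.466% of the others there. EYFP was detected in 20.4% of epithelial-class proliferating cells and 16.1% of the others, and in 20.3% of immune-class proliferating cells and 7.71% of the other immune cells. In the same immune-class cells the secretory gene Dcpp1 was detected in 53.2% against 28.8%, and the source of either transcript there was not tested. The proliferating immune-class cells were also deeper, with a median of 1368 UMIs against 690 over the class.

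**Figure D3:**
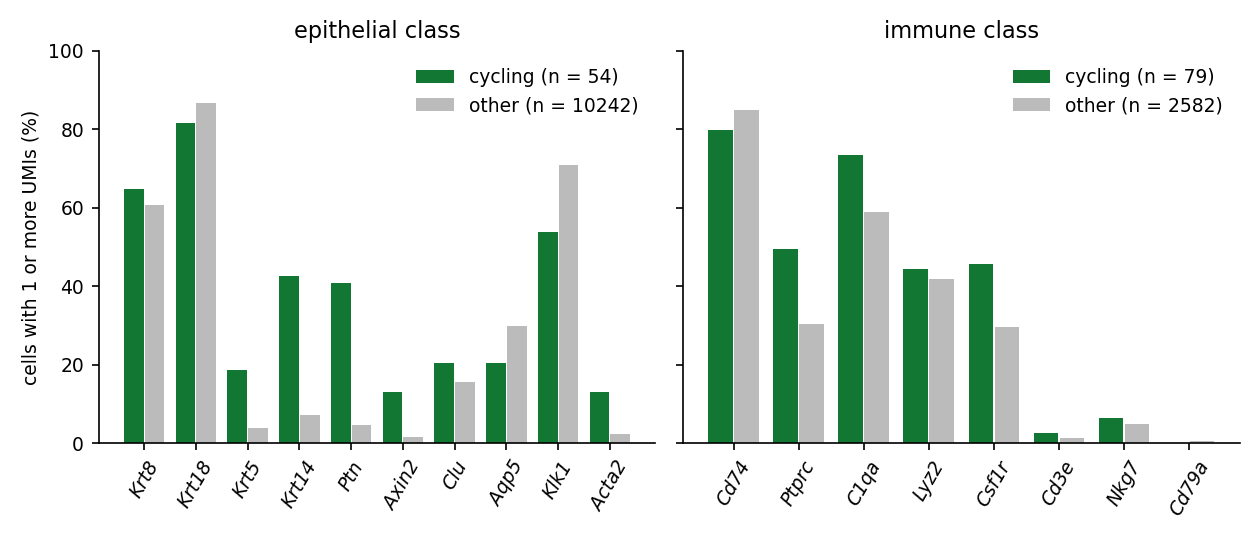
Share of Drop-seq cells with 1 or more UMIs of lineage and tumor genes, in proliferating cells (green) and other cells (grey) of the epithelial class (left, n = 54 and 10242) and the immune class (right, n = 79 and 2582). Krt14 stands at 42.6% and 7.23%, and C1qa at 73.4% and 58.9%. Proliferating immune-class cells had a median of 1368 UMIs against 690 over the class.

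Immune-class proliferating cells of Drop-seq were mostly macrophage-marked. They were deeper than the class as a whole (median 1368 against 690 UMIs), and the part of depth in the shares below was not tested. Of 79 cells, 64 carried 2 or more of Lyz2, C1qa, C1qb, C1qc, Csf1r, Cd68 and Cd14 (81.0%), against 75.1% of 2582 other immune-class cells. C1qa, a complement gene of resident macrophages, was detected in 73.4% against 58.9%, and the receptor Csf1r in 45.6% against 29.5%. Lyz2 was detected in 44.3% against 41.9%. MHC class II genes, which present antigen, were found in 69.6% against 73.1%, and Cd74, the invariant chain, in 79.7% against 84.9%. T and NK markers were found in 6 of 79 cells and B or plasma markers in 1, while Cd79a was not detected in any of them. In 2 control and 4 double-mutant cells T and NK markers were present, and these cells were too few to compare. Mitosis genes made up 133 UMIs per 10000 in immune-class and 76.5 in epithelial-class proliferating cells, and replication genes 55.4 and 30.5.

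Beyond the fixed lists, the genes with the highest ratio of proliferating to other cells within a class in double-mutant glands were taken, among genes with 20 or more UMIs. In the epithelial class these were 1190002F15Rik (149-fold), H19 (14.6-fold), Ccdc34 (14.4-fold), Smoc2 (11.1-fold), Ezh2 (9.39-fold), Dek (8.69-fold), 2700094K13Rik (8.19-fold) and Rad21 (7.45-fold). Ezh2 is a histone methyltransferase, Dek a chromatin protein and Rad21 a cohesin subunit. The H19 value came from 44 UMIs in 2 of 35 cells, and the Smoc2 value from 21 UMIs in 5 of 35. In the immune class they were 1190002F15Rik (20.4-fold), 2810417H13Rik (13.2-fold), Vrk1 (8.14-fold), Ezh2 (6.52-fold), Ccdc34 (5.72-fold), Nucks1 (5.60-fold), Tmem109 (4.90-fold) and Tsn (3.86-fold). Between the 2 classes 1190002F15Rik, Ccdc34 and Ezh2 were shared. These ratios compare selected with unselected cells and carry no test.

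Whole-gland sums of UMIs over all kept cells were then compared between genotypes (edgeR quasi-likelihood test with sex and stage as covariates, 26 glands, 10488 genes tested). Of all genes tested, 14.4% were higher in double-mutant glands and 7.56% were lower. Of the 8 selecting genes, 5 passed the low-count filter, with log2 fold changes of 1.71 ± 0.28 (SE) for Top2a, 1.56 for Cenpe, 1.52 for Mki67, 1.30 for Cenpf and 1.15 for Birc5. These genes chose the cells and low genes pass the filter mainly where they are high, so their values are a description. Cdk1, Ccnb1 and Ube2c were too low to test.

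Low genes of the other lists, too, pass the filter mainly where they are high, so shares of the tested genes are a description. Of the 71 mitosis genes, 23 were tested, and 6 rose (26.1%) and 0 fell at the edgeR adjusted threshold. They were Gas2l3 (log2 fold change 1.63), Ckap2l (1.55), Cenpa (1.14), Incenp (0.72), Smc2 (0.70) and Smc4 (0.60), which serve the spindle, centromere and condensin. Of 38 replication genes tested, 7 rose (18.4%, near the 14.4% of all genes) and 0 fell. Among the 7 were the helicase subunits Mcm6 (1.41) and Mcm3 (1.01), the DNA methylation factor Uhrf1 (1.27), the ligase Lig1 (0.77) and the clamp loader subunit Rfc2 (0.62). Hmgb2 (0.10 ± 0.25) and Pcna (0.26 ± 0.17) did not pass. Of 18 chromatin and tubulin genes, 3 rose (16.7%, again near 14.4%), the lamin Lmnb1 (2.17), Tubb6 (1.03) and Tubb5 (0.80). Of 8 cyclin and activator genes of G1, Ccnd2 (1.18) and Cdk6 (0.88) rose. Of 13 inhibitors, Cdkn1a rose (0.996), and Btg2 (-0.79) and Gadd45a (-0.90) fell. The list medians were 1.52 for the selecting genes, 0.26 for mitosis, 0.19 for replication, 0.13 for chromatin and tubulin, 0.20 for G1 and 0.19 for inhibitors, against 0.02 for all genes tested.

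Several of these genes were also higher in non-proliferating immune-class than epithelial-class cells. Cdkn1a stood at 610 against 21.1 CPM, Ccnd2 at 186 against 11.9, Lmnb1 at 131 against 2.57, Tubb6 at 93.6 against 3.44 and Gas2l3 at 43.9 against 1.82. The immune-class share of cells moved with genotype as given above, and its part in these calls was not tested. With batch as a factor, 11.4% of 12812 genes were higher in double-mutant glands and 6.64% lower. In that fit 4 of 39 mitosis genes rose (10.3%), and of 45 replication genes 2 rose (4.44%) and 1 fell, both under the share of all genes. The selecting genes had a median log2 fold change of 1.125 there. The selecting genes Cenpf, Cenpe and Birc5 did not pass with batch as a factor. Among the other genes named above, Cenpa, Incenp, Smc2, Mcm3, Uhrf1, Lig1 and Rfc2 did not pass there either.

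Without the 2 libraries with contrary sex genes, 10.4% of genes were higher and 4.42% lower. Of 23 mitosis genes 4 rose, of 37 replication genes 4 rose and of 8 G1 genes 1 rose, and Cenpa, Incenp, Rfc2 and Ccnd2 no longer passed. Without the library high in ribosomal genes, 13.5% were higher and 6.35% lower. There 5 of 23 mitosis genes rose, without Cenpa, and of 39 replication genes 7 rose and 1 fell. With all glands thinned to the same total, 13.1% of 5265 genes were higher and 7.67% lower, 1 of 9 mitosis genes rose and 1 fell, and 1 of 9 replication genes rose.

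**Figure D4:**
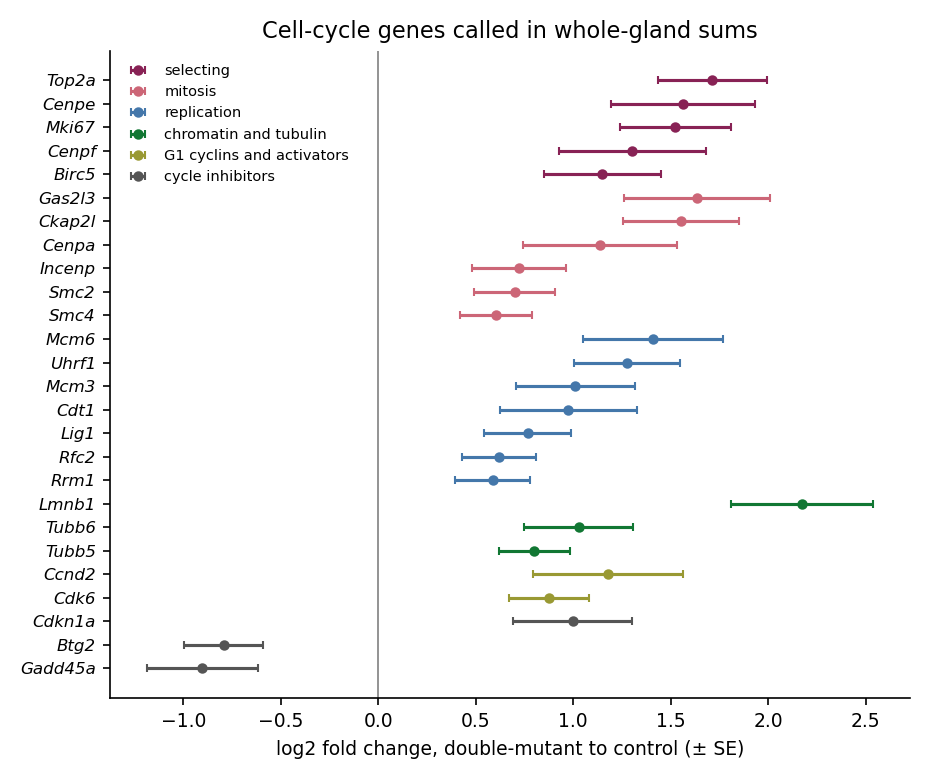
Log2 fold change (± SE) from control to double-mutant glands for the cell-cycle genes called in whole-gland sums of 26 Drop-seq glands, grouped by list. Lmnb1 stands highest at 2.17, and Btg2 and Gadd45a are the only points below 0.

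Between P90 and P40 double-mutant glands, no gene passed the edgeR adjusted threshold in either direction (0% of 9857 tested). At an unadjusted p under 0.05 there were 586 genes, or 5.95%, and DESeq2 called 3. No gene of any cell-cycle list was called by edgeR or DESeq2. The median log2 difference of 6 selecting genes was -0.19 and that of 23 mitosis genes -0.02, against 0.02 for all genes.

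In the bulk libraries, with 1 library a genotype and no test, genes past 2-fold were taken as changed. Among 15265 genes, 6.16% were over 2-fold higher in the double-mutant gland and 11.7% over 2-fold lower, with a median ratio of 0.807. Of the 8 selecting genes, 7 were over 2-fold higher, from Cdk1 (3.66-fold) and Ube2c (2.80-fold) to Birc5 (2.12-fold), and Cenpf stood at 1.97-fold. Mki67 had 408 counts in the control and 948 in the double-mutant library. Of 69 mitosis genes 25 were higher and 0 lower, of 60 replication genes 11 were higher and 1 lower, of 18 chromatin and tubulin genes 1 was higher, of 15 G1 genes 3 were higher and 1 lower, and of 15 inhibitors 1 was higher and 1 lower. The 2 glands differed in stage as well as genotype, which cannot be told apart. In such whole-gland libraries, more dividing cells and more RNA per cell cannot be told apart either.

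The CITE-seq members were unlike the Drop-seq ones. Of the 182 cells, 148 had over 25% of their UMIs in predicted genes and pseudogenes, a limit set after seeing the data, and 0 of 164 Drop-seq members did. These 148 cells had medians of 8844.5 UMIs, 2736.5 genes and 47.0% in predicted genes, and 87 CITE-seq members had 2500 or more genes. Mki67 was detected in 16.9% of them against 70.6% of the other 34. Among their antibody tags the transferrin receptor CD71 took a median of 37.6% and the activation marker CD69 16.8%. The other 34 members had 2.02% CD71 and 1.27% CD69, and non-members with low predicted-gene content 1.83% and 1.97%. The methods describe human HEK cells added to these suspensions, their removal by mapping to a joint human and mouse reference, and a limit of under 2500 genes per cell. The 87 members at or above that limit were still in the deposited matrices, and whether the 148 cells include HEK cells was not tested.

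**Figure D5:**
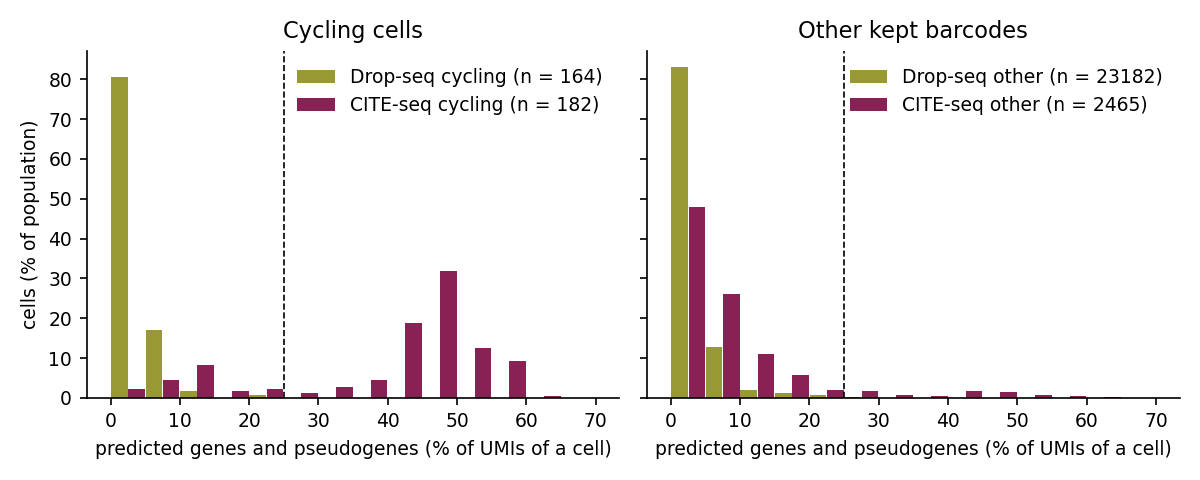
Percentage of a cell's UMIs in predicted genes and pseudogenes, for Drop-seq and CITE-seq cells that are proliferating (left) and all others (right). The dashed line marks 25%, which 148 of 182 CITE-seq and 0 of 164 Drop-seq proliferating cells exceed.

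With all members, the P70 shares were 7.94% and 5.14% in the 2 control glands and 7.34% and 7.29% in the 2 double-mutant glands. Without cells over the predicted-gene limit they were 0.475% (3 of 632) and 0.468% (3 of 641) in control and 1.96% (12 of 612) and 3.65% (16 of 438) in double-mutant glands. The double-mutant mean was higher both ways, 7.31% against 6.54% with all members and 2.81% against 0.471% without these cells. With all members, though, both double-mutant glands lay between the 2 control glands. Both double-mutant glands were labelled female, and the control glands were a male and a female. The size of the difference depends on the cells over the limit. With 2 glands a group an exact permutation test cannot reach 0.05. The remaining 34 members comprised 26 immune-class, 2 epithelial-class, 2 fibroblast-class, 2 mixed and 2 unclassed cells. In the 26 immune-class cells MHC class II protein (tag IAIE_MHC) took a median of 43.8% of tags against 46.0% in other immune-class cells, CD11c 2.46% against 1.97%, CD71 1.82% against 1.49% and CD11b 0.21% against 0.58%. Macrophage markers were present in 13 of the 26 (50%) against 64.8% of 772 other immune-class cells, the opposite order to Drop-seq. T and NK markers were present in 3 (11.5%) against 14.5%, and B or plasma markers in 5 (19.2%) against 6.48%.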

How the data were processed

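Proliferating cells and gene lists were chosen with earlier results of these data known. The authors deposited counts of UMIs per gene and barcode for 26 Drop-seq and 4 CITE-seq libraries (mm10, GENCODE annotation with Cre and EYFP added, alignment with STAR), antibody tag counts for the CITE-seq cells, and bulk read counts (featureCounts 1.6.0). Whether antibody tags were collapsed by UMI is not given in the sources used here.

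Shares are proliferating cells per kept barcode of a gland (100 or more genes, under 15% mt- UMIs). Groups were taken from the labels, and differences of mean shares were tested by two-sided permutation of glands, exact or with 100000 resamples, with Benjamini-Hochberg adjustment over 4 stage and genotype comparisons and over 3 lineages. The study modelled shares with a binomial mixed model, which was run as an alternative (lme4 1.1.37). The permutation test was the main one because groups held 6 or 7 glands. Cells were thinned to 500 UMIs to compare depths, and no doublet caller was run. A cell in the mixed class may be a doublet, and leaving that class out was an alternative. Cells of 1 gland were never treated as replicates.

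Whole-gland UMI sums were tested with edgeR 4.0.16 (quasi-likelihood, TMM, filterByExpr, sex and stage as covariates, R 4.3.3) and, as an alternative, DESeq2 1.42.0. The script was tested on simulated data. A fit within proliferating immune-class cells was not run, because 0 control and 7 double-mutant glands had 5 or more of them. Bulk genes needed 10 or more counts over both libraries. Lists named in the text hold the genes called in each list (up to 5 by p in each direction), also the 4 with the highest level in proliferating cells, and up to 8 genes outside the lists with the largest ratio. The 25% limit on predicted genes and pseudogenes was set after the data were seen. Promoter sequences come from RefSeq (GRCm38.p6). Intervals are exact (Clopper-Pearson), a count of 0 is given the limit of 3 counts, and both cover counting error only. Replicates are separate glands by their labels, and replicate numbers marked no shared animal or day.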

Additional observations from a re-analysis of the deposited data

Results flagged for a closer look

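In 1 of 13 groups of glands examined, the share of proliferating cells within the immune class of control P40 glands, 1 gland lay apart from the others. It stood at 15%, from 3 of 20 immune-class cells, and the group had a mean of 6.09% ± 6.01 over 4 glands. Chance alone sets a lone sample apart in about 1 of 20 groups. The immune class of that gland just reached the minimum of 20 cells.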

How the results depend on the processing

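The difference between genotypes over all glands kept its direction and its side of the threshold in all 39 alternatives run. The binomial mixed model gave p = 2.5e-05 over all glands and adjusted p of 0.0100 at P40 and 0.0025 at P90, where the fit was singular. Between stages its adjusted p was 0.0100 in double-mutant and 0.0138 in control glands. Its genotype effect was 0.866 ± 0.311 (SE) log odds at P40 and 1.26 ± 0.370 at P90, the opposite order to the differences in points. Thinning to 500 UMIs gave 0.409 points at P40, 0.232 at P90, -0.230 between stages in double-mutant glands and -0.0529 in control glands, none past the adjusted threshold, and also without double-mutant P90 replicate 5, chosen after seeing the data, 0.0683 at P90 and -0.393 between double-mutant stages, neither past it. Requiring 4 or more selecting genes gave 0.379 at P40 and 0.151 at P90, leaving out mixed-class cells -0.287 between control stages, and leaving out the library high in ribosomal genes -0.623 between double-mutant stages, none past the threshold. Permutation within batches gave 0.725 at P40 and 0.232 at P90, which also missed the threshold. Leaving out 1 gland gave 0.517 to 0.658 over all glands, 0.644 to 0.912 at P40, 0.383 to 0.501 at P90, -0.826 to -0.558 between double-mutant stages and -0.432 to -0.278 between control stages, and, chosen after seeing the data, 0.392 to 0.526 in the epithelial class (adjusted p from 0.0114 to 0.0903) and -0.670 to 1.88 in the immune class, below 0 when any 1 of 5 glands was left out.

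With the replicate number as a block, the differences were 0.912 points at P40, 0.413 at P90, -0.687 between double-mutant stages and -0.346 between control stages, none past the adjusted threshold, and 3998 of 13536 genes tested were called by genotype against 2308 of 10488, so the genes tested changed with the block too. Same-numbered glands of the 2 genotypes correlated above 0.1 in 5 of 6 pairs at P40 (r from -0.0211 to 0.596) and in 0 of 6 at P90 (-0.377 to -0.0184), those of the 2 stages in 7 of 13 (-0.390 to 0.650), and 6 of 26 glands correlated best with their own number. As not every pair was above 0.1, the numbers were not taken to pair the glands. The block gave 0.467 for the epithelial class and lineage by the rule genes alone gave 0.510, both past the threshold, while thinning gave 0.210 and lineage by the largest sum 0.343, neither past it. Lineage by the largest sum turned the endothelial difference to -0.412. The epithelial share of proliferating cells between double-mutant stages was 4.18 points, turned to -4.65 with 5 cells a gland and ran from -1.59 to 8.41 with 1 gland left out. Thinning to the same total called 1092 genes by genotype. Between stages edgeR called 0 genes, 232 without the low-count filter, and DESeq2 called 3. The causes of these changes were not tested. Shares near 0 rest on few cells, and 3 control P90 glands held none.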

Other observations

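Shares of proliferating cells were also read by labelled sex. In control P40 glands the mean was 0.565% in 3 females and 0.502% in 3 males, and in control P90 glands 0.101% and 0.273%. In double-mutant P40 glands it was 1.26% in 4 females and 1.37% in 3 males, and in double-mutant P90 glands 0.574% and 0.679%. The ranges of the sexes overlapped in every group, and no test was run.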
